A study of Mus musculus with 9 samples.

Results

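The guanylate-binding protein (GBP) genes were taken from RNA sequencing of bone marrow endothelial progenitor cells as every listed gene whose symbol is Gbp followed by a digit. There were 11 of them among the 2810 genes listed in any comparison, and they made up the whole list of mouse GBP symbols used here. Sca-1+/CD31+ cells were selected magnetically from lineage-depleted bone marrow of C57BL/6 J mice at 8 weeks of age and grown on gelatin in EGM-2 endothelial medium. They came from male mice (M-EPCs), from female mice with ovaries (F-EPCs) and from female mice ovariectomized at around 35 days (OVX-EPCs), and the labels give no transgene or drug treatment for any group. Each group had 3 libraries, which the study's methods call biological replicates. The labels do not tie them to separate animals or cultures, so the p-values below measure the spread between these libraries, part of which may be technical. The study concerns differences between EPCs of the sexes that do not rest on sex hormones. OVX-EPCs and F-EPCs differ by ovariectomy, whereas M-EPCs differ from both by sex and by testicular hormones, which cannot be told apart here. No sham operation of the F-EPC mice is described, so ovariectomy includes the surgery. A batch of isolation or culture that goes with a group could not be told apart from it either.

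GBPs are large GTPases of the dynamin superfamily that cells make in response to interferons, above all interferon-gamma. They assemble on the membranes around intracellular bacteria and parasites, and on bacteria themselves, and they help inflammasomes to form. In macrophages and endothelial cells they are a standard readout of interferon signalling, which acts on their promoters through factors such as the interferon regulatory factors.

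All 11 GBP genes were higher in M-EPCs than in either female group, and most of them were lowest in F-EPCs with OVX-EPCs in between. Summed over the 11 genes, F-EPCs had 4740 ± 59.9 normalized counts, OVX-EPCs 10454 ± 376 and M-EPCs 53789 ± 1303 (SD, n = 3). In M-EPCs the sum was 11.3-fold that of F-EPCs and 5.15-fold that of OVX-EPCs, and in OVX-EPCs it was 2.21-fold that of F-EPCs. Gbp9 was the exception to this order, since its F-EPC libraries lay above its OVX-EPC libraries. A normalized count here is the number of reads on a gene divided by a size factor of the library, and the 9 libraries were placed on the scale that the authors set for M-EPCs and F-EPCs. In RNA from whole cultures, fewer cells that express a gene and less RNA of that gene per cell cannot be told apart.

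The genes lie in 2 clusters of the mouse genome (build GRCm38, GENCODE annotation). On chromosome 3 the plus strand carries Gbp5, Gbp7, Gbp3, Gbp2b and Gbp2 in this order within 144 kb, chr3:142493978-142638008. On chromosome 5 the minus strand carries Gbp8, Gbp9, Gbp4, Gbp10, Gbp6 and Gbp11 within 332 kb, chr5:105014150-105346472. Gbp2b is called Gbp1 in older work, and Gbp11 is annotated as a polymorphic pseudogene, a gene that is intact in some strains only. The spans of Gbp8, Gbp9 and Gbp4 overlap, but their exons share only 60 or 61 bases in each pair. Gbp10 and Gbp6 are near copies: 73.3% of the 50-base stretches of Gbp10 transcripts also occur in Gbp6, and 45.9% of those of Gbp6 occur in Gbp10. How the mapping divided such reads is not given in the sources used here, so the values of Gbp10 and Gbp6 are uncertain. Of the stretches of Gbp11 and Gbp8, 19.2% and 18.1% occur in another GBP gene. For the remaining 7 genes the share was at most 8.05%, and for Gbp5 it was 0.

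Promoter sequences from RefSeq (build GRCm38.p6) were matched by symbol for 5 of the 11 genes, those of the chromosome 3 cluster, with 6 start sites because Gbp3 has 2. Each covers 250 bases before the start and 50 after it. Both strands were searched for the core of the interferon-stimulated response element, the letters GAAA and again GAAA with any 2 bases between them, which interferon regulatory factors bind. They were also searched for the gamma-activated site, the palindrome TTCNNNGAA, an element of promoters that respond to interferon-gamma. The stretches of 30 bases around the response element are shown because every one of these 5 genes has one in the promoter of at least 1 of its start sites. They read 5′ to 3′ on the strand of the gene with the match in capitals, which appears as its reverse complement, TTTC and TTTC with 2 bases between them.
Gbp5, chr3:142496759-142496788: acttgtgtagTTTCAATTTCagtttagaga
Gbp7, chr3:142530273-142530302: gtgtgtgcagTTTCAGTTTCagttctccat
Gbp3, chr3:142559992-142560021: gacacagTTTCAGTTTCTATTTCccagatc
Gbp2b, chr3:142594700-142594729: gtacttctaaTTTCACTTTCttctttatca
Gbp2, chr3:142620594-142620623: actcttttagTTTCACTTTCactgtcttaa

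The matches begin 165 bases before the start in Gbp5, 137 before it in Gbp2b, 59 in Gbp2, 53 in Gbp7 and 45 in Gbp3, where a second match begins 39 bases before the start and overlaps the first. The letters are the same in Gbp2b and Gbp2, TTTCACTTTC, and the first match of Gbp3 has the letters of Gbp7, TTTCAGTTTC. The response element core was present in 5 of the 6 GBP promoters and in 3.44% of all 32851 promoters of the same length. The gamma-activated site was present in 2 of the 6, those of Gbp5 and Gbp7, and in 8.30% of all promoters, while 0.454% of all promoters had both. The sites nearest to the start are shown because they carry the same letters in both genes.
Gbp5, chr3:142496872-142496901: tggccgttatTTCTCAGAAccaagcacaga
Gbp7, chr3:142530239-142530268: aagcagaagcTTCTCAGAAagtcagcacaa

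These matches are a description of the sequence. No binding was measured, and no relation of the matches to the levels was tested.

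Gbp2 is a prenylated GBP that gathers on parasite vacuoles and on cytosolic bacteria. In F-EPC libraries it had 651, 721 and 666 normalized counts, in OVX-EPC libraries 2491, 2652 and 2536, and in M-EPC libraries 20508, 20866 and 21588. The 3 groups did not overlap, and each step up was far wider than the spread within a group. Gbp4, from the chromosome 5 cluster, had 173, 154 and 158 normalized counts in the F-EPC libraries, 678, 674 and 675 in OVX-EPCs and 5385, 5628 and 5709 in M-EPCs. Gbp5, another prenylated member, which is known to promote assembly of the NLRP3 inflammasome, had 263, 225 and 198 in F-EPCs, 972, 896 and 860.4 in OVX-EPCs and 6163, 6143 and 6632 in M-EPCs. In these 3 genes OVX-EPCs lay above F-EPCs by like ratios (3.77-fold for Gbp2, 4.18-fold for Gbp4 and 3.98-fold for Gbp5), and M-EPCs lay a further 6.94-fold to 8.25-fold above OVX-EPCs.

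Gbp2b, a prenylated member linked to defence against intracellular pathogens, was close to absent from the female cells. The F-EPC libraries had 0, 0 and 4 reads of it, the OVX-EPC libraries 1, 7 and 6, and the M-EPC libraries 401, 422 and 326. From the summed reads, scaled by the size factors, its M-EPC level was 295-fold that of F-EPCs (95% interval 115 to 1083) and 87.7-fold that of OVX-EPCs (52.0 to 161). These intervals are exact and cover counting error only, as does the floor of 3 reads per library, under which a gene was not distinguished from 0. All 4 F-EPC reads came from replicate 3, and without it F-EPCs had no read. The ratio of F-EPCs to OVX-EPCs was 0.298 (0.0713 to 0.948), so counting error alone leaves the OVX-EPC level higher, but the libraries overlapped and the limma fit described below, which includes the spread between libraries, did not pass.

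Gbp7, linked to assembly of the phagocyte oxidase and to control of intracellular bacteria, had 1023, 1087 and 1123 normalized counts in the F-EPC libraries, 2015, 2447 and 1899 in OVX-EPCs and 6778, 6985.5 and 7021 in M-EPCs. Gbp3, its neighbour, had 392, 438 and 419.9 in F-EPCs, 1012, 936 and 933 in OVX-EPCs and 3482, 3616 and 3705 in M-EPCs. Both kept the order of F-EPCs, OVX-EPCs and M-EPCs without overlap, with smaller ratios of M-EPCs to F-EPCs (6.43 and 8.65) than Gbp2, Gbp4 and Gbp5 had.

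Gbp8 had 396, 352 and 408 normalized counts in the F-EPC libraries, 1574, 1537 and 1609 in OVX-EPCs and 4172, 4112 and 4262 in M-EPCs. Its OVX-EPC level was 37.6% of its M-EPC level, the highest such share among the 11 genes. Gbp9, which lies within the span of Gbp8, had 1493.5, 1470.0 and 1494 normalized counts in the F-EPC libraries, 1236, 1255 and 1188 in OVX-EPCs and 4298, 4311 and 4366 in M-EPCs. It was the member that differed least between M-EPCs and F-EPCs (2.91-fold) and the only one whose F-EPC libraries all lay above the OVX-EPC libraries. A ratio of reads within a library needs no size factor, and the log2 ratio of Gbp9 to Gbp8 reads was 1.95 ± 0.10 in F-EPCs, -0.36 ± 0.07 in OVX-EPCs and 0.05 ± 0.02 in M-EPCs (SD, n = 3). The same log2 ratio for Gbp8 over Gbp4 was 1.25 ± 0.10 in F-EPCs and 1.22 ± 0.03 in OVX-EPCs but -0.41 ± 0.04 in M-EPCs. So Gbp8 kept its proportion to Gbp4 within the spread between F-EPCs and OVX-EPCs, whereas Gbp9 did not keep its proportion to Gbp8, although the spans of the 3 genes overlap.

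Gbp6 and Gbp10 have been linked, with Gbp7 and Gbp2b, to control of bacteria in macrophages. Gbp6 had 313, 247 and 329 normalized counts in the F-EPC libraries, 376, 432 and 397 in OVX-EPCs and 1306, 1289 and 1373 in M-EPCs. Gbp10, its near copy, had 4, 0 and 2 reads in F-EPCs, 1, 13 and 8 in OVX-EPCs and 49, 49 and 30 in M-EPCs, and Gbp11 had 9, 2 and 7, then 13, 19 and 18, then 133, 153 and 106. For Gbp10 the F-EPC and OVX-EPC libraries overlapped, whereas all M-EPC libraries were higher for each of these 3 genes.

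**Figure D1:**
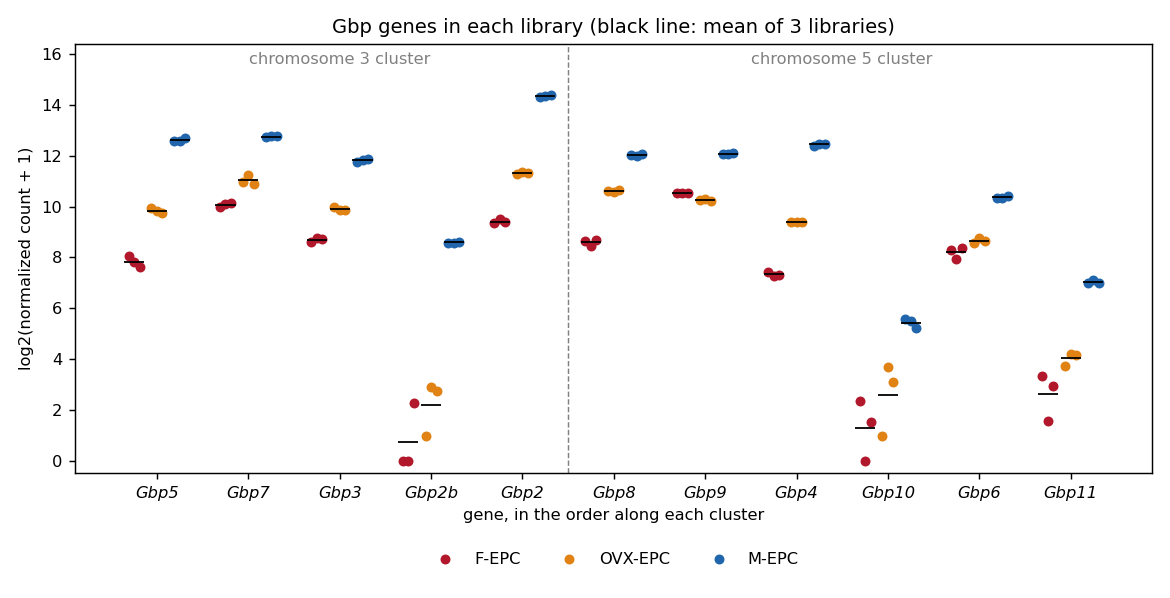
Each point is 1 library, plotted as log2(normalized count + 1) of the 11 Gbp genes in their order along each cluster, and black lines are means of 3 libraries. The blue M-EPC points lie above all other points for every gene, and Gbp9 is the gene whose red F-EPC points lie above the orange OVX-EPC points.

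Divided by the length of their exons, the 11 genes spanned a wide range of levels, and their order differed between groups. In M-EPCs Gbp2 stood far above the rest at 8342 ± 219 normalized counts per kb (SD, n = 3). Gbp7 (1234 ± 23.3) and Gbp8 (1215 ± 22.0) followed and did not differ beyond their spread, and below them came Gbp3 (1103), Gbp5 (951), Gbp9 (836), Gbp4 (744), Gbp6 (222), Gbp2b (136), Gbp11 (48.4) and Gbp10 (10.9), with no overlap between neighbours. In OVX-EPCs the order per kb began with Gbp2 (1017 ± 33.1), Gbp8 (457 ± 10.6), Gbp7 (378 ± 51.5), Gbp3 (294 ± 13.6) and Gbp9 (237 ± 6.74), again without overlap between neighbours. In F-EPCs Gbp9 (287 ± 2.64) and Gbp2 (270.1 ± 14.7) led and overlapped, ahead of Gbp7 (192 ± 9.05), Gbp3 (128 ± 7.09) and Gbp8 (112 ± 8.59). Gbp11, Gbp10 and Gbp2b were lowest in F-EPCs, at 2.19, 0.511 and 0.448 per kb, and their libraries overlapped.

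The make-up of the family, taken as each gene's share of the reads on all 11 genes within a library, differed between groups. Gbp2 took 14.3% ± 0.884 of the GBP reads in F-EPCs, 24.5% ± 0.512 in OVX-EPCs and 39.0% ± 0.0769 in M-EPCs. Gbp9 took 31.3% ± 0.300 in F-EPCs, 11.7% ± 0.183 in OVX-EPCs and 8.04% ± 0.128 in M-EPCs. Gbp7 took 22.7% ± 0.913 in F-EPCs and 20.2% ± 2.01 in OVX-EPCs, whose libraries overlapped, and 12.9% ± 0.169 in M-EPCs. Not all shares followed the total of the family: that of Gbp8 was highest in OVX-EPCs (15.1% ± 0.879), while its F-EPC (8.12% ± 0.549) and M-EPC (7.78% ± 0.130) libraries overlapped. Gbp3 took 8.79% in F-EPCs and 9.20% in OVX-EPCs, with overlap, and 6.69% in M-EPCs. For Gbp2 and Gbp9 no library of one group overlapped a library of another, and an exact permutation test of 3 libraries against 3 gave p = 0.10 for each pair of groups, two-sided, the smallest value that this design allows. Such shares do not depend on the size factors. Without Gbp2 the summed level of the other 10 genes in M-EPCs was still 8.08-fold that of F-EPCs and 4.16-fold that of OVX-EPCs.

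**Figure D2:**
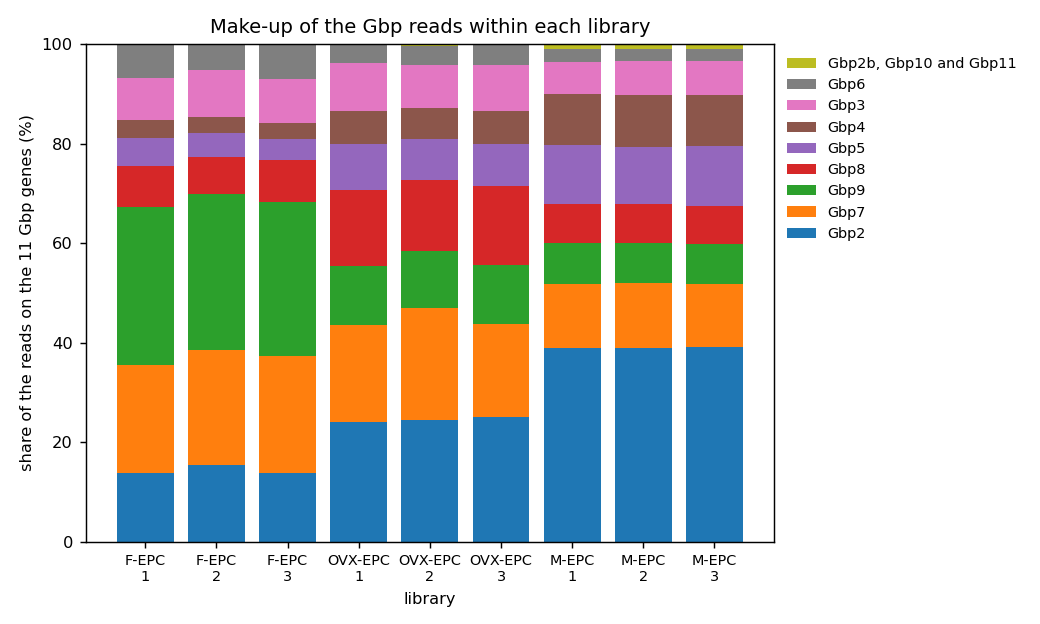
Each bar is 1 library, and its colours give the share, in percent, of the reads on the 11 Gbp genes that fell on each gene, with the 3 rarest genes pooled. Gbp9 and Gbp7 make up most of an F-EPC bar, and Gbp2 is the largest part of every OVX-EPC and M-EPC bar.

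The groups were then compared by limma on log2 of the normalized count plus 1, over all genes that the authors list for a comparison, and a gene was called where the adjusted p was below 0.05 and the log2 fold change was 1 or more in size. Against F-EPCs all 11 GBP genes were called higher in M-EPCs, where 97.6% of the 2093 listed genes were called in either direction and 48.4% as higher in M-EPCs. The authors listed genes for differing between these same libraries, so these calls describe the members and show no stability. The log2 fold change was 7.83 (SE 0.65, adjusted p = 1.90e-04) for Gbp2b, 5.10 (SE 0.09, adjusted p = 3.77e-06) for Gbp4, 4.95 (SE 0.09, adjusted p = 3.77e-06) for Gbp2 and 4.79 (SE 0.13, adjusted p = 1.50e-05) for Gbp5. It was smaller for Gbp11 (4.43), Gbp10 (4.13), Gbp8 (3.44), Gbp3 (3.11), Gbp7 (2.68), Gbp6 (2.16) and Gbp9 (1.54). The values of the genes with few reads rested on single libraries: Gbp2b was at 8.59 without F-EPC replicate 3, a value against 0 reads that depends on the pseudocount, and Gbp10 was at 3.49 without F-EPC replicate 2. The median of the 11 genes was 4.13, beside -0.99 over all listed genes. At a log2 fold change of 2 or more, 10 of the 11 were called higher, all but Gbp9, beside 14.6% of the listed genes.

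Against OVX-EPCs all 11 were again called higher in M-EPCs, where 98.8% of the 1317 listed genes were called and 40.8% as higher in M-EPCs, with the same limit from the authors' selection. The M-EPC libraries lay above all libraries of the other group for all 11 genes in both comparisons, beside groups without overlap for 98.3% of the genes listed against F-EPCs and 99.2% of those listed against OVX-EPCs. These M-EPC libraries are the same in both comparisons, so these are not separate pieces of evidence. The log2 fold change was 6.40 (SE 0.54, adjusted p = 2.03e-04) for Gbp2b, 3.04 (SE 0.12, adjusted p = 3.05e-05) for Gbp4, 3.03 (SE 0.12, adjusted p = 3.07e-05) for Gbp2, 3.0 for Gbp11, 2.85 for Gbp10 and 2.79 for Gbp5. The other 5 genes, Gbp3, Gbp9, Gbp6, Gbp7 and Gbp8, lay between 1.41 and 1.91. Without OVX-EPC replicate 1, Gbp2b was at 5.77 and Gbp10 at 2.03. The median was 2.79, beside -1.26 over all listed genes, and 6 of the 11 were called at a log2 fold change of 2 or more, beside 9.04% of the listed genes. With DESeq2's own size factors the log2 fold changes of M-EPCs over OVX-EPCs moved up by a median of 0.63 over the listed genes, to 3.67 for Gbp4, 3.66 for Gbp2 and 2.04 for Gbp8, and with TMM by 0.20. Those of M-EPCs over F-EPCs moved by -0.35 with DESeq2, to 4.76 for Gbp4 and 1.19 for Gbp9, and by 0.087 with TMM, and all 11 genes were still called in both comparisons.

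The comparison of F-EPCs with OVX-EPCs asks about ovariectomy within females, with the surgery and any batch of a group included. The authors' table for it lists 5 GBP genes, Gbp2, Gbp3, Gbp4, Gbp5 and Gbp8, all called lower in F-EPCs, where 98.2% of the 811 listed genes were called and 67.3% as lower in F-EPCs. To see all 11 genes in this contrast, limma was also fitted to the genes listed in both comparisons with M-EPCs. That listing did not use this contrast directly, but it used the same F-EPC and OVX-EPC libraries. All 11 GBP genes entered it through their high M-EPC levels, so the shares given beside them are descriptions. Of the 807 genes so listed, 796 passed a mean of at least 1 normalized count in either group. There the same 5 genes were called lower in F-EPCs and none higher, beside 12.3% of the 796 genes called lower and 3.02% called higher. At a log2 fold change of 2 or more, 3 were called lower in either fit (Gbp4, Gbp8 and, at the edge, Gbp5), beside 28.1% of the genes in the authors' table and 4.40% of the 796. The authors had selected these 5 genes on the same libraries, so the calls repeat that selection. The median log2 fold change of F-EPCs over OVX-EPCs was -1.44 for the 11 genes and -0.34 for all 796.

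In that fit the log2 fold change was -2.06 (SE 0.11, adjusted p = 1.27e-04) for Gbp4, -2.03 (SE 0.12, adjusted p = 1.45e-04) for Gbp8, -2.0 (SE 0.15, adjusted p = 4.35e-04) for Gbp5, -1.92 (SE 0.11, adjusted p = 1.45e-04) for Gbp2 and -1.21 (SE 0.11, adjusted p = 9.94e-04) for Gbp3. Gbp7 had a log2 fold change of -0.97 (SE 0.14, adjusted p = 0.00379) and so missed the fold threshold only. For Gbp7 the call turned on a single library: without F-EPC replicate 3, OVX-EPC replicate 1 or OVX-EPC replicate 3 the log2 fold change lay between -1.0 and -1.05, and the gene was called. Counting adjusted p alone, 6 of the 11 passed, beside 33.3% of the 796 genes. The low-count genes Gbp2b (-1.47, SE 0.83, adjusted p = 0.229) and Gbp10 (-1.31, SE 0.91, adjusted p = 0.318) did not pass, nor did Gbp11 (-1.44, SE 0.48, adjusted p = 0.0655), which was called with a log2 fold change of -1.81 and an adjusted p of 0.0458 without F-EPC replicate 1. Without OVX-EPC replicate 1, Gbp2b was at -2.10 and Gbp10 at -2.13, without F-EPC replicate 3 Gbp2b was at -2.24, and without F-EPC replicate 2 Gbp10 was at -0.65 and Gbp11 at -0.91 (adjusted p = 0.0450 for Gbp11), while Gbp2b and Gbp10 passed in none of these fits. Gbp6 (-0.45, SE 0.15, adjusted p = 0.0694) and Gbp9 (0.27, SE 0.10, adjusted p = 0.0906) did not pass limma's test either. Of the 11 genes, 9 had no overlap between the F-EPC and OVX-EPC libraries, beside 49.1% of the 796 genes, and 8 of them were lower in F-EPCs, beside 38.2%. These counts include the genes that the authors had selected on this contrast, so they are descriptions.

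The size of this contrast depended on the scaling. Size factors recomputed on the listed genes moved all log2 fold changes of F-EPCs over OVX-EPCs up, by a median of 0.34 with edgeR's TMM and 0.33 with DESeq2 over the 796 genes and by 1.13 and 1.12 in the authors' own table. In the first case 4 of the 5 genes kept the call and Gbp3 did not, at -0.86 and -0.88, and in the second case none was called, with Gbp4 at -0.94 with either tool and Gbp3 at -0.08 with either tool. Gbp4, Gbp8, Gbp5 and Gbp2 had an adjusted p under 0.05 in all of these fits. Gbp9 was higher in F-EPCs in the fits over the genes listed in both comparisons with M-EPCs (807 with edgeR and DESeq2, which had no filter). It was at 0.27 with edgeR on the authors' size factors (adjusted p = 0.00393), 0.62 with TMM (adjusted p = 1.89e-09) and 0.60 with DESeq2. The values with TMM and DESeq2 include the median shifts of 0.34 and 0.33, and the adjusted p with TMM depends on that shift. Limma on the authors' size factors gave Gbp9 an adjusted p of 0.0906.

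**Figure D3:**
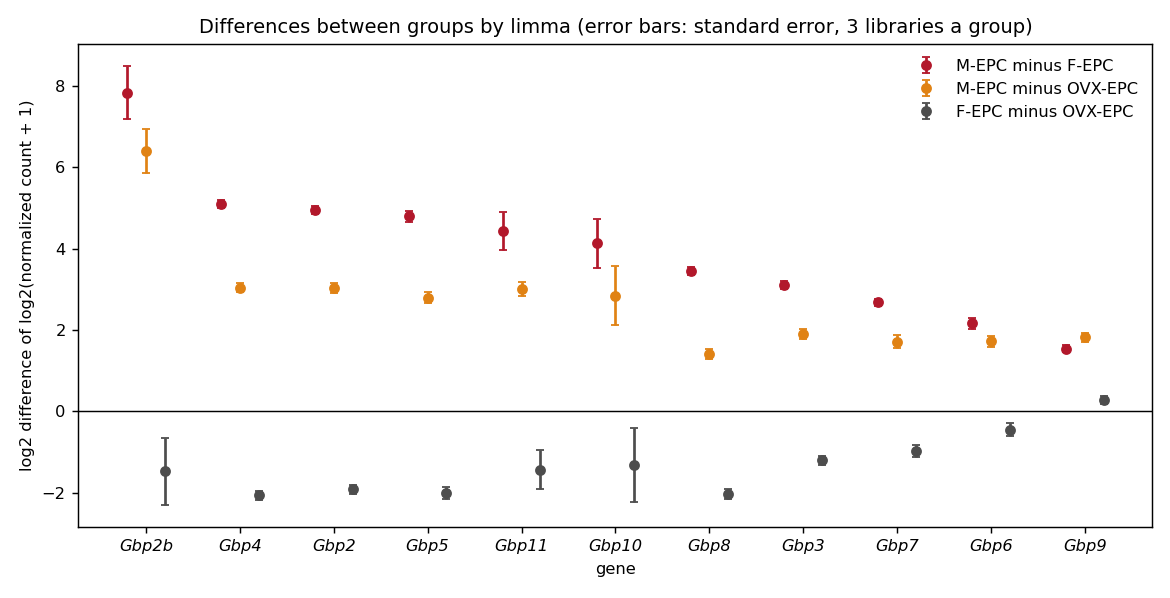
Points are limma's log2 differences of log2(normalized count + 1) between groups for each of the 11 Gbp genes, with standard errors as bars, ordered by the difference of M-EPCs and F-EPCs. The red and orange differences from M-EPCs are above 0 for all genes, and the grey differences of F-EPCs and OVX-EPCs are below 0 for all but Gbp9.

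**Figure D4:**
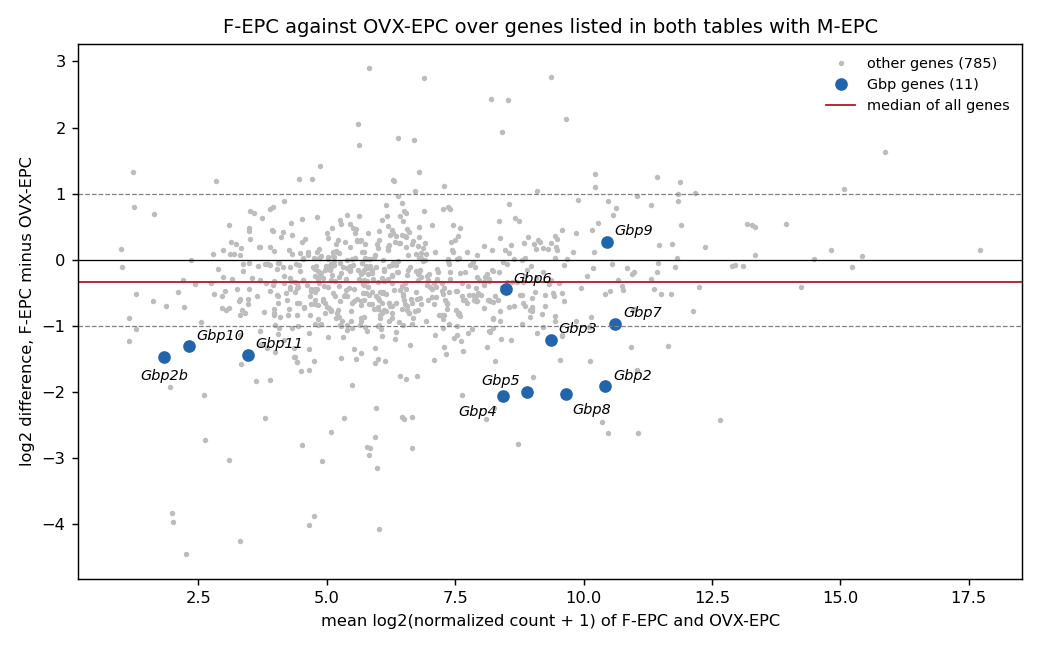
Each point is 1 of the 796 genes, with the mean level of F-EPCs and OVX-EPCs on the x axis (log2 of the normalized count plus 1) and the log2 difference of F-EPCs minus OVX-EPCs on the y axis. Dashed lines mark an absolute log2 difference of 1 and the red line the median of all genes, -0.34. Gbp2, Gbp4, Gbp5 and Gbp8 lie between -1.92 and -2.06, and Gbp9 is the only Gbp gene above 0.

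The inducer and signalling genes of the interferon-gamma pathway were taken from a list of 14. Of these, 7 were listed against F-EPCs and all 7 were called higher in M-EPCs, and 4 were listed against OVX-EPCs and all 4 were called higher. Of all listed genes, 48.4% and 40.8% were called higher in the same order. Ifng, the gene of the cytokine itself, had 18.1 to 19.1 normalized counts in M-EPC libraries. No F-EPC library had a read of it, and it was not listed in a comparison with OVX-EPCs, so it has no OVX-EPC values here. Irf1, a transcription factor that acts on interferon-gamma targets, stood at 7772 ± 125 normalized counts in M-EPCs, against 1182 ± 24.3 in F-EPCs (log2 fold change 2.72, SE 0.08). Ciita, the master regulator of MHC class II genes, had 5154 ± 174 and 155 ± 20.5 (log2 fold change 5.05, SE 0.12), which is in the range of Gbp2, Gbp4 and Gbp5. Socs1, a feedback inhibitor of the pathway, had 502 ± 23.4 and 77.5 ± 8.28 (log2 fold change 2.68, SE 0.12). Batf2, Nlrc5 and Socs3 were called higher as well, with log2 fold changes of 1.95, 1.15 and 1.24, but with DESeq2's own size factors Nlrc5 and Socs3 were not called.

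Between F-EPCs and OVX-EPCs the signalling genes differed among themselves. Over the genes listed in both comparisons with M-EPCs, 2 of the 4 signalling genes were called lower in F-EPCs, Ciita at -2.79 (SE 0.15) and Irf1 at -1.32 (SE 0.12). Socs1 (-0.35, adjusted p = 0.107) did not pass, and Batf2 (-0.51, adjusted p = 0.0494) did not reach the fold threshold. These 2 calls stand beside the 12.3% of the 796 genes called lower. In the authors' table all 3 signalling genes it lists were called lower in F-EPCs, Ciita, Irf1 and Socs3 (-1.08, SE 0.10), where 67.3% of all listed genes were. With TMM or DESeq2 on that table Ciita alone of the 3 was called (-1.65 and -1.66), Irf1 was at -0.19 and -0.20, and Socs3 was at 0.04 and 0.03. Over the other set these scalings left Ciita called (-2.44 and -2.46) and Irf1 just short of the fold threshold (-0.98 and -0.99). In limma over the genes listed in both comparisons with M-EPCs the list had a median of -0.91, beside -0.34 over all 796 genes.

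A list of 20 other interferon-inducible GTPases held the immunity-related GTPases, which act beside GBPs on pathogen vacuoles, the very large Gvin GTPases and the antiviral Mx proteins. All 13 members listed against F-EPCs and all 14 listed against OVX-EPCs were called higher in M-EPCs, beside 48.4% and 40.8% of all listed genes. With DESeq2's own size factors Gvin1, Gvin2 and 9930111J21Rik1 were not called against F-EPCs (0.81 to 0.87). Iigp1, an effector of this family, stood at 19248 ± 508 normalized counts in M-EPCs, against 1147 ± 101 in F-EPCs (log2 fold change 4.07, SE 0.10). Irgm1, a regulator of the family, had 11211 ± 199 and 3530 ± 58.6 (log2 fold change 1.67, SE 0.08), and Igtp, another regulator, had 4226 ± 45.1 and 819.8 ± 99.1 (log2 fold change 2.37, SE 0.12). Tgtp2 (3.52), Irgm2 (2.01), Ifi47 (1.94) and Gm12250 (1.70) lay between or near these values. Between F-EPCs and OVX-EPCs, 2 of the 12 tested were called lower in F-EPCs (12.3% of the 796 genes were), Iigp1 at -1.66 (SE 0.13) and Tgtp2 at -1.15 (SE 0.15), whereas Irgm1 was at 0.02 (SE 0.10). With TMM and DESeq2 Iigp1 was still called (-1.32 and -1.33) and Tgtp2 was not (-0.81 and -0.82), and in the authors' table neither was (-0.53 and -0.54 for Iigp1). In limma the median of -0.33 was close to the -0.34 of all 796 genes.

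Mx1 and Mx2, which respond mainly to type I and type III interferons, had another order. Mx1 stood at 1412 ± 8.44 normalized counts in F-EPCs, against 373 ± 36.4 in OVX-EPCs on the scale of that comparison (log2 fold change 1.92, SE 0.12), and 1672 ± 46.1 in M-EPCs against 367 ± 36.4 in OVX-EPCs on the scale of the other. Mx2 was called higher in F-EPCs in the same way (log2 fold change 1.88, SE 0.11), and 30.8% of the genes in that table were called in this direction. Both genes were thus lowest in OVX-EPCs, where 10 of the 11 GBP genes had higher mean levels than in F-EPCs.

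**Figure D5:**
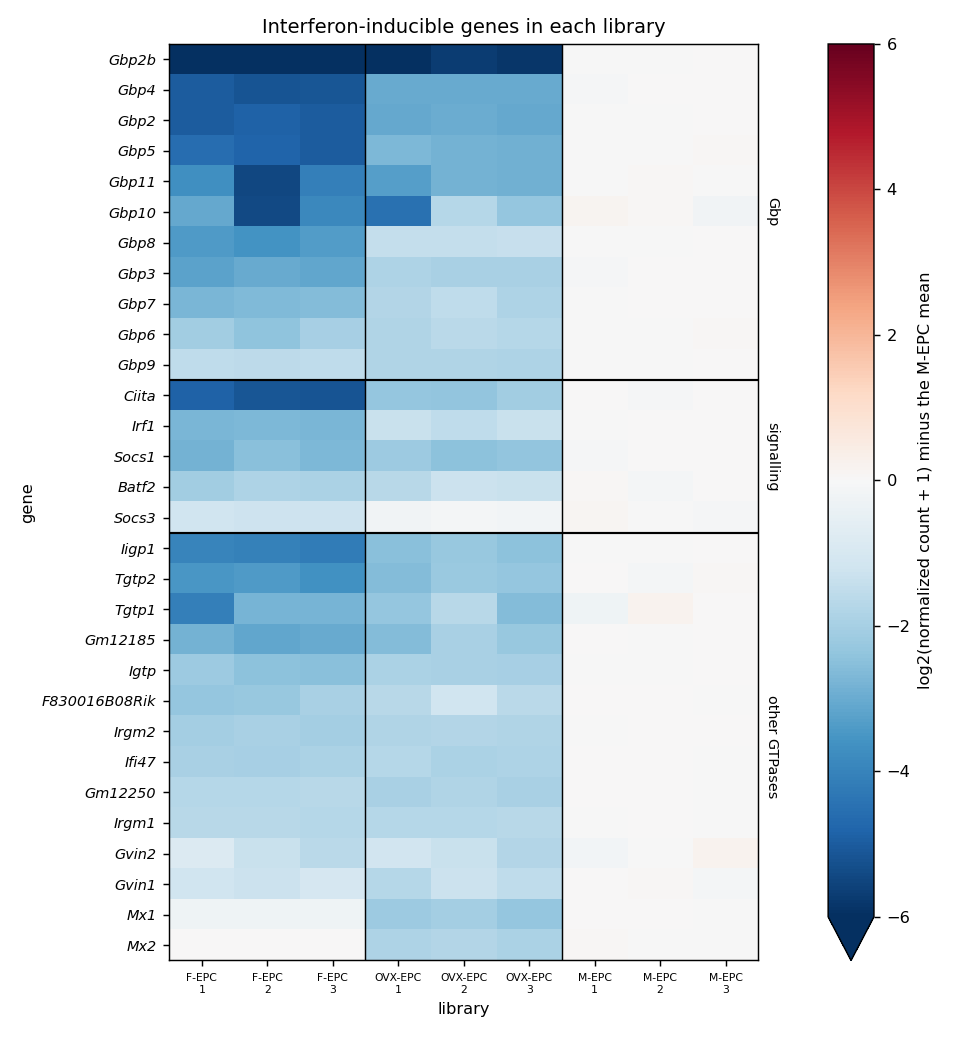
Colour gives the log2(normalized count + 1) of a gene in a library minus its mean in the 3 M-EPC libraries, for the 11 Gbp genes and for the listed signalling genes and other GTPases with a value in all 9 libraries. Values under -6 have the darkest blue. Gbp4, Gbp2, Gbp5, Ciita and Iigp1 grade from dark in F-EPCs to lighter in OVX-EPCs, whereas Gbp9, Irgm1 and Gm12250 are about equally pale in both, and Mx1 and Mx2 are pale in F-EPCs.

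The genes whose pattern over the 9 libraries was most like each member were taken from 1287 other genes with a value in every library, by the root mean square difference of log2 values centred on each gene's mean. All 9 libraries share the 3 groups, so these values are descriptions. Gbp2, Gbp4 and Gbp5 were one another's nearest genes, at 0.105 for Gbp2 with Gbp4, 0.157 for Gbp4 with Gbp5 and 0.160 for Gbp2 with Gbp5, although Gbp4 lies on another chromosome. After them came the MHC class II genes H2-Eb1, Cd74 and H2-Aa for Gbp2 (0.242 to 0.301), and H2-Eb1, H2-Aa and H2-Ab1 for Gbp4 (0.187 to 0.240). Ranked by Pearson's r instead, Gbp2 and Gbp5 remained the nearest genes of Gbp4, but the nearest gene of Gbp2 was Gbp3 and that of Gbp5 was Fcgr4, and none of these MHC class II genes was among the 5 nearest of Gbp2, Gbp4 or Gbp5. Gbp9 was most like Gm12250 (0.0725) and Irgm1 (0.107), and Gbp6 was most like Igtp (0.168) and Irgm2 (0.171), all of them immunity-related GTPases. Gbp7 was nearest to Pik3ip1 (0.112), Gbp3 to H2-DMa (0.173) and Gbp8 to Calhm6 (0.205). Gbp10 was nearest to Gbp11 (0.589) and Gbp11 to Gm7580 (0.475), while the nearest gene of Gbp2b, Serpina3g, was at 1.46. By Pearson's r the nearest gene was another for Gbp2b (Pde3b), Gbp3 (Gbp2), Gbp6 (Gm18301), Gbp7 (Cd274) and Gbp8 (Clec10a).

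A list of 15 inflammasome and cell death genes that act with or after GBPs had 4 genes listed against F-EPCs. Il1b, the gene of the cytokine that inflammasomes release, stood at 150.2 ± 10.8 normalized counts in M-EPCs, against 34.9 ± 8.64 in F-EPCs (log2 fold change 2.10, SE 0.20). Zbp1, a nucleic acid sensor, and Nlrc4, an inflammasome receptor, were also called higher, with log2 fold changes of 1.36 and 1.08, and Apol9b was called lower (-2.87), beside 48.4% and 49.3% of all listed genes called higher and lower. With DESeq2's own size factors Nlrc4 was at 0.73 and not called. Against OVX-EPCs Il1b (3.32) and Zbp1 (1.93) were listed and called higher in M-EPCs, beside 40.8% of all listed genes. Between the female groups limma called neither, with Il1b at 1.22 (adjusted p = 0.144) and Zbp1 at 0.56 (adjusted p = 0.0188), although Il1b was called higher in F-EPCs with edgeR's TMM (1.41, adjusted p = 0.00892) and with DESeq2 (1.40). Apol9b, the member of the list in the authors' table of this contrast, was called higher in F-EPCs (2.67, adjusted p = 0.00385). Casp1, Casp4, Gsdmd, Aim2 and Nlrp3 were not listed in any comparison, so they have no values here.

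Listed genes within 500 kb of a GBP gene were few. The microRNA gene Mir6381 lies within Gbp2, 3.34 kb from its start, and stood at 7.98 ± 3.81 normalized counts in M-EPCs, against 0.632 ± 1.09 in F-EPCs. Its reads cannot be told apart from reads of Gbp2 introns. 4930519L02Rik, 397 kb from the start of Gbp2, was called lower in M-EPCs against OVX-EPCs, and Gm32051, 62.9 kb from the start of Gbp11, was called lower in OVX-EPCs than in F-EPCs, both with under 10 normalized counts on average in either group of that comparison.

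The libraries and markers were as follows. Each M-EPC and F-EPC library had between 1602317 and 2070442 reads on the genes listed for M-EPCs and F-EPCs, and the total depth of the libraries is unknown because other genes were not used here. Pecam1, which encodes the CD31 used to select the cells, had 483 to 489 normalized counts in M-EPC and 151 to 166 in F-EPC libraries. On the authors' size factors its OVX-EPC level was also above that of F-EPCs (limma log2 fold change of F-EPCs over OVX-EPCs -1.21). With TMM and DESeq2 size factors this log2 fold change was -0.08 and -0.09, and Pecam1 was not called. Of 12 endothelial markers, Kdr, Tie1, Vwf and Esam were called lower in M-EPCs than in either female group and Pecam1 higher than in F-EPCs. The summed level of those listed was 795 to 833 in M-EPC and 2931 to 2971 in F-EPC libraries. Macrophages express GBP genes strongly, and of 12 monocyte and macrophage markers 3 were listed against F-EPCs, Ly6c2, Ccr2 and Cx3cr1, all called lower in M-EPCs (as were 49.3% of the listed genes), with a sum of 218 to 313 in M-EPC and 844 to 905 in F-EPC libraries. Against F-EPCs the listed markers of T and NK cells (2 of 12), B cells (5 of 6), dendritic cells (3 of 8) and neutrophils (5 of 8) were all called lower in M-EPCs, with Klrb1c and Cd209a at 0 in every M-EPC library. Against OVX-EPCs, where 58.0% of the listed genes were called lower, the same held for 2 monocyte and macrophage, 8 T and NK cell, 6 B cell, 5 dendritic cell and 3 neutrophil markers, of which DESeq2 with its own size factors did not call Ccr9, Cd79b, Itgax, Ncr1, Ngp and Nkg7. Adgre1, Csf1r and Cdh5 were not listed in any comparison, and they and the other markers of these lists were not used here. The part that other cell types had in the GBP levels was not tested.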

How the data were processed

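RNA-seq libraries of male (M-EPC), female (F-EPC) and ovariectomized (OVX-EPC) mouse cells, 3 per group, were grouped by their labels. Per the labels and the study's methods the authors mapped reads with HISAT2, quantified them with Cuffquant and Cuffnorm (Cufflinks), compared groups with DEseq and used build mm10. Tool versions and the counting of shared or stranded reads are not given in the sources used here. The deposited signal is a normalized count, reads over a library's size factor, which the authors set separately in each of 3 tables. The tables hold only genes past the authors' screen, 2093, 1317 and 811 genes. Their columns with the authors' fold changes, p-values and annotation were not used. Multiplying by the size factor gave whole reads for 100% of values (tolerance 0.01 reads), and a library had identical reads in each of the genes common to 2 tables (807, 435 and 292 genes). The OVX-EPC libraries were put on a common scale through the M-EPC libraries, and a link through F-EPCs gave values that differ by a ratio of 1.0035. Reads on listed genes lay between 454298 and 2070442 per library and table, which leaves total depth unknown.

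Limma 3.58.1 (R 4.3.3) was run on log2(normalized count + 1) without covariates, for genes whose mean reached 1 in one of the groups, with Benjamini-Hochberg adjustment over all genes fitted. Calls needed an adjusted p below 0.05 and a log2 fold change of 1 or more in size. It was tested on simulated data with 200 genes changed at a log2 fold change of 2, and recovered 200, 200 and 200 of them in the 3 comparisons, with 6, 5 and 2 false calls. The changed genes were drawn above a minimum mean level, in random directions and at a fixed dispersion. So the simulation does not cover genes with few reads, such as Gbp2b, Gbp10 and Gbp11, or tables in which most genes differ. Count ratios have exact 95% intervals. Exact permutation tests are two-sided, and with 3 libraries against 3 their smallest p-value is 0.10. Alternatives were a pseudocount of 0.1, no filter or a mean of at least 10, a replicate block, an FDR of 0.01, log2 fold changes of at least 2 or any, edgeR 4.0.16 with the authors' size factors or TMM, DESeq2 1.42.0 on the recovered reads, and leaving out each library. Promoters and transcripts were read from RefSeq and GENCODE M21 with Python 3.11.15, SciPy 1.17.1 and pandas 2.3.3, and figures drawn with matplotlib 3.10.9.

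The text names every Gbp gene, at most 8 genes of each pathway list with the highest mean level, the genes most like each member, and listed neighbours within 500 kb. Marker genes are named beside these, and Mx1 and Mx2 were named after their values were seen. Gvin1, Gvin2 and 9930111J21Rik1 were named because their calls changed with the scaling. The members, gene lists and tests were chosen with earlier results of these data known. A gene of the signalling list is not reported here.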

Additional observations from a re-analysis of the deposited data

How the results depend on the processing

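The calls rest on genes that the authors had selected, so tests across all expressed genes and a scaling on them were not possible, and genes with few reads (Gbp2b, Gbp10 and Gbp11) are limited by depth. Size factors from TMM or DESeq2 on such genes take most of them as unchanged, so fits with them do not tell which scaling is right. With both M-EPC comparisons, all 11 GBP genes were called under every alternative except a log2 fold change of 2 or more, which left 10 against F-EPCs and 6 against OVX-EPCs. Between F-EPCs and OVX-EPCs that threshold left 3 in the authors' table and 3 over the genes listed in both comparisons with M-EPCs. In the authors' table edgeR with TMM and DESeq2 called 0, where limma called 5, although at an adjusted p-value alone Gbp2, Gbp4, Gbp5 and Gbp8 passed with both, and over the other set both called 4 of the 5. No log2 fold change of a GBP gene reversed. Among called genes the share higher in the first group moved from 49.5% to 37.2% between M-EPCs and F-EPCs with DESeq2, from 41.3% to 52.6% between M-EPCs and OVX-EPCs with DESeq2, from 31.4% to 63.1% with TMM and 67.1% with DESeq2 in the authors' table of F-EPCs and OVX-EPCs, and from 19.7% to 43.6% and 43.0% over the other set, in that order. In the authors' table of F-EPCs and OVX-EPCs the calls over all genes fell from 796 to 404 and 380. Leaving out each library gave 11, 11, 5 and between 5 and 6 calls. With the replicate block, 11, 11, 5 and 5 GBP genes were called, and 2003, 1288, 781 and 114 genes in all. The labels give no pairing beyond the number. Deviations of same-numbered libraries correlated between -0.019 and 0.032 over the listed genes, and not every library correlated best with its own number. With so few libraries a group, these values cannot exclude a shared preparation. Ranking genes by Pearson's r in place of the root mean square difference changed how many GBP genes were among the 5 genes most like Gbp2b, Gbp3, Gbp4, Gbp7 and Gbp11, to 1, 2, 3, 2 and 1, and replaced the MHC class II genes named beside Gbp2 and Gbp4.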
